A study of Mus musculus with 8 samples.

Results

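Keratins of simple and basal epithelium were examined in mouse thyroid follicular cell organoids (TFCOs), thyroid tissue and lung tissue. The 10 keratins were taken by symbol from a table of 16119 genes: the simple keratins Krt8, Krt18, Krt7 and Krt19, the basal keratins Krt5, Krt14, Krt15 and Krt17, and the squamous keratins Krt4 and Krt13. The table lists them in capitals, as KRT8, KRT18, KRT7, KRT19, KRT5, KRT14, KRT15, KRT17, KRT4 and KRT13. All 10 were listed and all 10 passed the filter on low values, with 39 further keratins in the table. RNA was sequenced in 8 libraries. TFCO lines mThy14 and mThy16, each grown from 1 thyroid, were sequenced at early and at late passage, beside thyroid tissue 1 and 2 and lung tissue 1 and 2. Every sample was labelled Wild type and C57BL/6, and animal ages were not given. TFCOs grew in basement membrane extract in a medium with R-spondin 3, A83-01, forskolin, EGF and FGF10, without further treatment. Each group thus held 2 libraries, and the early and late TFCOs were the same 2 lines. Values are normalized counts, which are reads per gene divided by a size factor of the library, and 9755081 to 16904865 reads per library lay on genes.

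Keratins form the intermediate filaments of epithelial cells, and each filament pairs a type I with a type II keratin. Krt8 and Krt18 are the pair of simple epithelia, the single layers that line follicles, ducts and glands, and Krt7 and Krt19 join them in many ducts and glands. Krt5 and Krt14 are the pair of the dividing basal layer of stratified epithelia, where Krt15 is also found, whereas Krt17 is a keratin of skin appendages that is induced in stressed epithelium. Krt4 and Krt13 are the pair of the upper layers of mucosal squamous epithelium, such as that of the oesophagus. Normal thyroid follicles are a simple epithelium.

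The positions below are those of mouse build GRCm38 with GENCODE M21. The type II members lay together on chromosome 15: Krt8 (chr15:101996698-102004482, minus strand, 9 exons), Krt7 (chr15:101411043-101430313, plus strand, 9 exons), Krt5 (chr15:101707070-101712898, minus strand, 9 exons) and Krt4 (chr15:101918535-101924735, minus strand, 9 exons). Type I members lay on chromosome 11: Krt19 (chr11:100140810-100148665, minus strand, 6 exons), Krt14 (chr11:100203162-100207548, minus strand, 8 exons), Krt15 (chr11:100131758-100135928, minus strand, 8 exons), Krt17 (chr11:100256217-100261029, minus strand, 8 exons) and Krt13 (chr11:100117327-100121566, minus strand, 8 exons). The exception was Krt18, the type I partner of Krt8, which lay next to it on chromosome 15 (chr15:102028180-102032027, plus strand, 7 exons). Keratins are strongly conserved at the end of the central rod, which codes for the helix termination motif. That stretch of 60 coding bases is shown for type I keratins, because the levels of several of them followed Krt19, as described further on. Capitals mark bases that differ from Krt19 in the type I keratins:
Krt19: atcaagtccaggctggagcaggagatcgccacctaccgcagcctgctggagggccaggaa chr11:100140952-100141011, minus strand, exon 6
Krt18: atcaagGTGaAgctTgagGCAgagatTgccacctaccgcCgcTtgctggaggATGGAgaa chr15:102031452-102031511, plus strand, exon 6
Krt14: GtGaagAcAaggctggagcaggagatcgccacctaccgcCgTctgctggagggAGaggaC chr11:100204113-100204172, minus strand, exon 6
Krt15: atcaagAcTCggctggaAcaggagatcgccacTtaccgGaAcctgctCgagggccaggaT chr11:100132996-100133055, minus strand, exon 6
Krt17: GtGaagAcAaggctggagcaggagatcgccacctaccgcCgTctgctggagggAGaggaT chr11:100257438-100257497, minus strand, exon 6
Krt13: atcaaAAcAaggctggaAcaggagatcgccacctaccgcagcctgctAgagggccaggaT chr11:100118738-100118797, minus strand, exon 6
Krt34: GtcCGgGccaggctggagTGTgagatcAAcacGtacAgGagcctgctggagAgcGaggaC chr11:100038291-100038350, minus strand, exon 6

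Of the 60 bases, 54 were shared with Krt19 by Krt13, 51 each by Krt14, Krt15 and Krt17, and 44 by Krt18. Over the whole coding sequence, Krt5 was 73.9% identical to Krt8, Krt7 73.8% and Krt4 71.8%. Krt17 was 76.6% identical to Krt19, Krt14 75.3%, Krt15 75.0%, Krt13 74.8% and Krt18 67.7%. The closest pair among the members was Krt14 and Krt17, at 84.1% identity with a longest shared run of 71 bases. The longest exact run that a member shared with Krt8 or Krt19 of its own type was between 12 bases, for Krt18, and 35 bases, for Krt17. Of all 50-base stretches of the Krt8 transcript, 26.9% also occurred in transcripts of other genes, as did 14.4% of those of Krt14, 8.52% of those of Krt5, 3.99% of those of Krt17 and none of those of Krt19, Krt7, Krt4 or Krt13. Counts of Krt8, Krt14 and Krt5 can therefore be split between copies and are uncertain to that extent. Among other keratins named below, the share was 50.1% for Krt6b, 49.5% for Krt6a, 37.6% for Krt16, 33.1% for Krt34 and 24.2% for Krt33b. Counts of these keratins are more uncertain still or similarly so. For Krt2, Krt36, Krt71, Krt72 and Krt73 it was at most 1.97%.

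The 8 libraries did not group by tissue in their basal and squamous keratins. The 4 TFCO libraries and thyroid tissue 1 held 167 or more normalized counts of each of these 6 keratins, and thyroid tissue 2 and both lung tissues held at most 42.4. In all 6 the lowest of the 5 libraries was at least 5-fold above the highest of the 3, as in 4.65% of genes. The same split was present across the table: 44 genes were at 50 or more in all TFCO libraries and thyroid tissue 1 and at 0 in the other 3 libraries, and 16 genes showed the reverse. Of the 44 genes, 9 were keratins (Krt13, Krt33b, Krt34, Krt6a, Krt6b, Krt71, Krt72, Krt73 and Krt74), against 49 keratins among all 16119 genes, and none of the 16 was a keratin. These sets of 5 and 3 libraries were found in the data and are not groups of the study. The genome build to which each library was mapped is not given in the sources used here, and whether it differed between these sets is not known. TFCO results are therefore given below also against thyroid tissue 1 alone, both lung tissues belong to the other set, and tissue and set cannot be told apart for them.

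Most follicular cell markers followed the labels, and alveolar markers did so in part. The 6 follicular cell markers, with the hormone precursor Tg and the transcription factor Pax8 among them, summed to 20807 to 170247 normalized counts in TFCOs and 1554970 and 2220190 in thyroid tissue, against 1991 and 2932 in lung tissue, which held the surfactant gene Sftpc at 241128 and 180943. The 4 alveolar markers summed to 328736 and 221867 in lung tissue, 3074 to 19977 in TFCOs and 20403 and 15109 in thyroid tissue. One of them, Ager, did not separate the tissues clearly, at 57060 and 23371 in lung tissue, 20265 and 15011 in thyroid tissue and 2958 to 19366 in TFCOs. Pax8 was at 3925 to 8273 in TFCOs and at 0 in both lung tissues. Most of the follicular sum was Tg in thyroid tissue (1526000 and 2175020) and Nkx2-1 in lung tissue (2890 and 1721 in lung tissue 1 and 2). Of the 6 markers, 5 were called higher in TFCOs than in lung tissue, where 9.83% of genes were, and Nkx2-1 was not.

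Krt8 was the most abundant of the 10 keratins in every TFCO library, before and after scaling by transcript length. Krt8 stood at 3605 and 16824 normalized counts in early mThy14 and mThy16 TFCOs, at 4694 and 17272 in late TFCOs, at 3293 and 4347 in thyroid tissue 1 and 2 and at 3497 and 1596 in lung tissue 1 and 2. Both mThy16 libraries were above every other library, whereas the mThy14 libraries lay within or close to the range of the thyroid tissues. Its partner Krt18 was at 661 and 2839 in early and 959.65 and 2891 in late TFCOs, 356 and 2193 in thyroid tissue and 2339.5 and 855 in lung tissue. The 2 thyroid tissues thus differed more in Krt18 than in Krt8, with the lowest value of all in thyroid tissue 1. Krt7 was at 225 and 5319.8 in early and 891 and 5569 in late TFCOs, 2196 and 2890.4 in thyroid tissue and 8359.5 and 4104 in lung tissue. Krt7 was the simple keratin that varied most, and mThy14 TFCOs were below both thyroid tissues. Krt19, the keratin that lacks the tail domain, was at 2461 and 4214 in early and 1856 and 4049 in late TFCOs, 1485 and 1788 in thyroid tissue and 3353 and 1786 in lung tissue. Every TFCO library was above both thyroid tissues in Krt19.

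Among basal keratins, Krt5 was at 228 and 1485 in early mThy14 and mThy16 TFCOs, at 469 and 1346 in late TFCOs, at 311 and 25.8 in thyroid tissue and at 9.21 and 6.07 in lung tissue. Its partner Krt14 was at 339 and 596 in early and 258 and 539 in late TFCOs, 263 and 0 in thyroid tissue and 5.86 and 2.02 in lung tissue. Krt5 thus spanned a wider range across TFCO libraries than its partner. Krt15 was at 275 and 441 in early and 219.6 and 393 in late TFCOs, 225 and 42.4 in thyroid tissue and 18.4 and 10.8 in lung tissue. Krt17 was at 257 and 365 in early and 272 and 286 in late TFCOs, 298 and 2.77 in thyroid tissue and 1.68 and 0 in lung tissue. For all 4 basal keratins, thyroid tissue 1 lay within the range of the TFCO libraries, and thyroid tissue 2 was nearer to lung tissue. The squamous keratin Krt4 was at 167 and 1466 in early and 303 and 1596 in late TFCOs, 702 and 4.61 in thyroid tissue and 4.19 and 2.02 in lung tissue. Its partner Krt13 was at 374 and 489 in early and 212 and 562 in late TFCOs, 208 in thyroid tissue 1 and 0 in thyroid tissue 2 and both lung tissues. In the last 3 libraries the low values rest on few reads, for Krt5 on 28, 11 and 9 and for Krt14 on 0, 7 and 3.

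**Figure D1:**
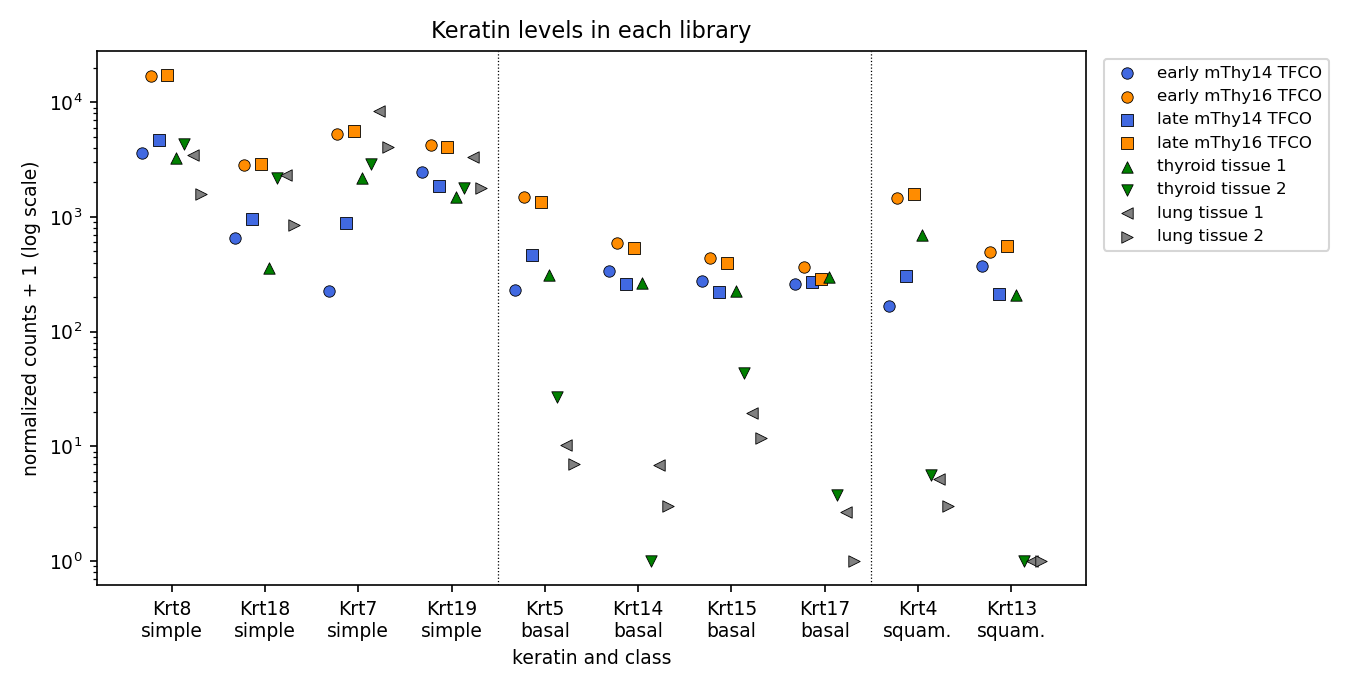
Normalized counts plus 1 (log axis) of each of the 10 keratins in each library, with 1 point per library and dotted lines between the simple, basal and squamous classes. In the 6 basal and squamous keratins the TFCO libraries and thyroid tissue 1 lie between 167 and 1596 normalized counts, and thyroid tissue 2 and lung tissue at 42.4 or below.

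Levels were then divided by transcript length, to compare keratins with each other. Basal and squamous keratins together made up 19.3% and 14.7% of the summed level per kilobase of the 10 keratins in early mThy14 and mThy16 TFCOs, 17.4% and 14.2% in late TFCOs, and 24.0% in thyroid tissue 1. The share was 0.722% in thyroid tissue 2, 0.283% in lung tissue 1 and 0.316% in lung tissue 2. Simple keratins thus led in every library, and the share of the other classes was highest in thyroid tissue 1 and not in TFCOs. The log2 ratio of simple to basal and squamous keratins was 2.36 ± 0.29 in TFCOs (SD, n = 2 lines, passages averaged) and 8.38 ± 0.11 in lung tissue (SD, n = 2), and it was 1.66 and 7.10 in the 2 thyroid tissues. Within simple keratins, Krt8 made up 37.9% to 51.3% of the summed level of all 10 in TFCOs, 37.5% and 39.5% in thyroid tissue and 23.5% and 22.9% in lung tissue. Krt19 and Krt7 were the largest parts in lung tissue, Krt19 at 27.98% and 31.9% and Krt7 at 26.8% and 28.2%, whereas Krt7 was at 1.13% to 7.91% in TFCOs. Division by length assumes reads along the whole transcript, which holds for the kit in the paper's methods but not for the end-counting library of the sample labels. Without it the ratio was 2.40 in TFCOs.

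**Figure D2:**
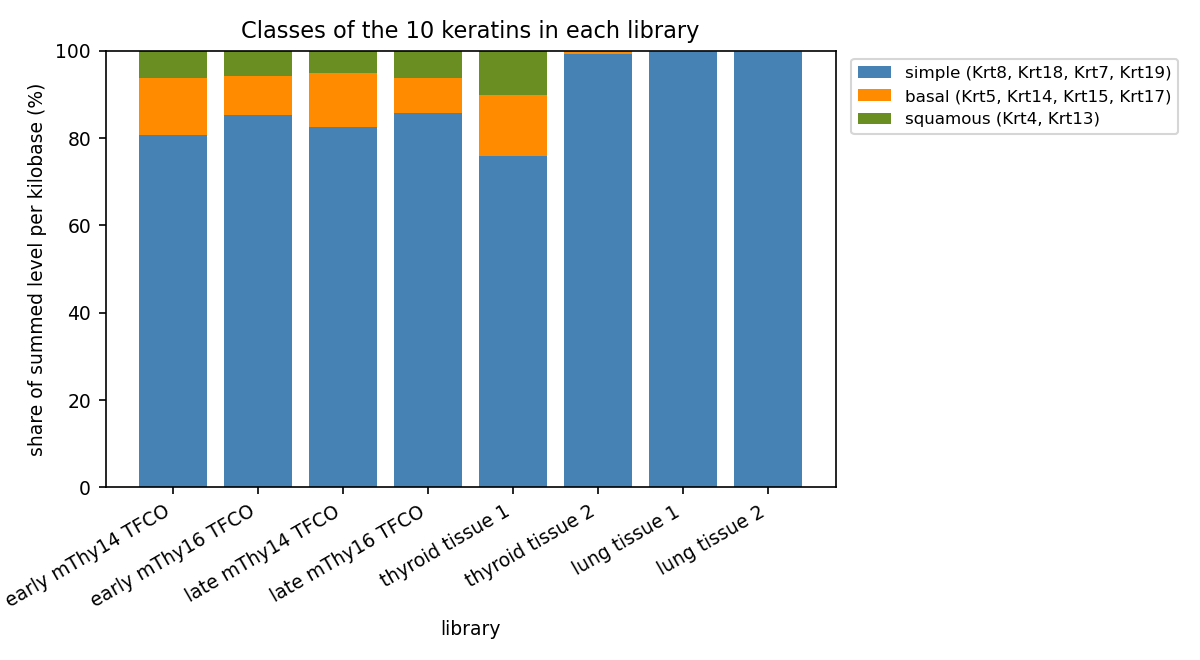
Share of the summed level per kilobase of the 10 keratins (percent) that each class takes in each library, as stacked bars. Basal and squamous keratins take 14.2% to 24.0% in the TFCOs and thyroid tissue 1 and at most 0.722% in the other 3 libraries.

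TFCOs were compared with thyroid tissue to ask how the keratins of the cultured cells differ from those of the tissue. No keratin of the 10 passed the test (limma on log2 values, adjusted p under 0.05), where 3.65% of 14703 genes did, and none had an unadjusted p under 0.05, where 18.6% did. limma's voom also called 0. The basal and squamous keratins had the largest differences, with log2 differences of 4.74 ± 2.23 (SE) for Krt13, 4.66 ± 2.31 for Krt14, 3.23 ± 2.12 for Krt4, 3.13 ± 1.90 for Krt17, 2.90 ± 1.26 for Krt5 and 1.70 ± 0.93 for Krt15, and adjusted p between 0.280 and 0.420. With a pseudocount of 5 the differences of Krt13 and Krt14, which were at 0 in thyroid tissue 2, were 3.58 and 3.501. Among simple keratins the differences were 1.15 ± 0.72 for Krt8, 0.87 ± 0.48 for Krt19, 0.77 ± 0.98 for Krt18 and -0.69 ± 1.05 for Krt7. Only Krt13 and Krt19 had all 4 TFCO libraries above both thyroid tissues, as did 17.2% of all genes. These values depended on the thyroid tissue used. Without thyroid tissue 1, the log2 differences of the 6 basal and squamous keratins lay between 2.89 for Krt15 and 8.68 for Krt14. Without thyroid tissue 2 they lay between -0.26 for Krt4 and 1.13 for Krt5. Each of these fits leaves 1 thyroid tissue, and the sets of libraries had been seen beforehand, so they are no test.

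Against thyroid tissue 1, which lies in the same set of libraries, the mean of the TFCOs was higher by 2.08 on the log2 scale for Krt18, 1.35 for Krt8, 1.00 for Krt19 and 0.88 for Krt13, and for each of these 4 keratins all 4 TFCO libraries were above it. All TFCO libraries were above thyroid tissue 1 in 25.8% of all genes. The differences were 1.13 for Krt5, 0.63 for Krt14 and 0.50 for Krt15, with 3 of 4 TFCO libraries above, and -0.03 for Krt17, -0.26 for Krt4 and -0.49 for Krt7. Against thyroid tissue 2 the same means were higher by 6.71 for Krt4 and 6.28 for Krt17 and lower for Krt18 (-0.54) and Krt7 (-0.89). Krt14 and Krt13 were at 0 in thyroid tissue 2, and against a floor of 3 reads there the mean of the TFCOs was at least 157-fold higher for Krt14 and at least 148-fold higher for Krt13. With 1 tissue on one side these are values without a test. Thyroid tissue also held markers of other cells at higher levels than TFCOs: the 4 fibroblast markers summed to 24423 and 18213 in thyroid tissue and to 91.1 to 218 in TFCOs, and the 5 skeletal muscle markers to 40909 and 129971 against 1955 to 2638. Of other epithelial and endocrine cells, the 3 C cell markers summed to 41181 and 66422 in thyroid tissue against 21.8 to 98.4 in TFCOs, and the 2 parathyroid markers to 8525 and 25474 against 0 to 10.1. In bulk RNA, fewer cells of a type and less RNA per cell cannot be told apart, and the part of these cells in the keratin levels was not tested. Markers of thymic epithelium, a neighbour of the thyroid that holds Krt5 and Krt14, summed over 3 genes to 104 to 163 in TFCOs, 158 and 118 in thyroid tissue 1 and 2 and 3.35 and 1.35 in lung tissue. Of these, Foxn1 was at 99.1 and 98.7 in thyroid tissue 1 and 2 and at 35.1 to 97.3 in TFCOs. Psmb11 was at 16.3 and 0.922 in thyroid tissue 1 and 2 and 15.7 to 23.8 in TFCOs. Prss16 was at 42.5 and 18.4 in thyroid tissue 1 and 2 and 36.6 to 76.0 in TFCOs.

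**Figure D3:**
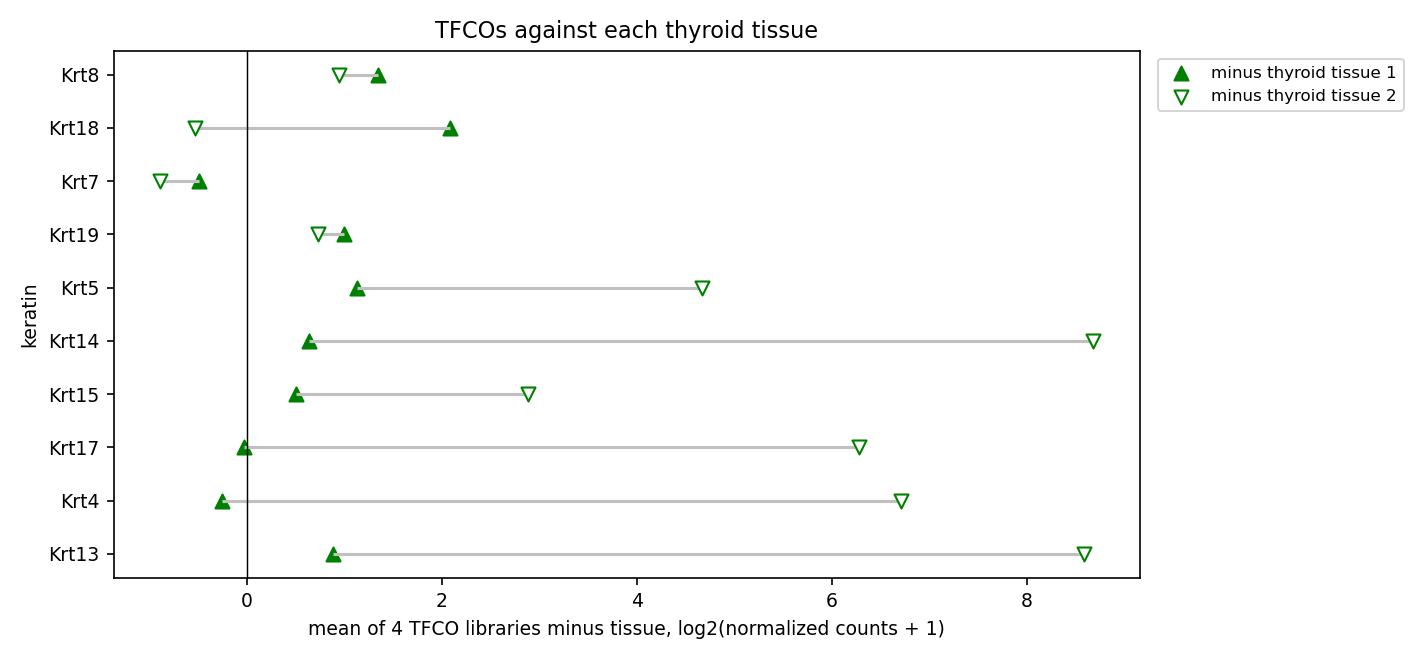
Mean of the 4 TFCO libraries minus each thyroid tissue on the log2(normalized counts + 1) scale, for each keratin, with filled triangles for thyroid tissue 1 and open triangles for thyroid tissue 2. For Krt4 the difference is -0.26 against thyroid tissue 1 and 6.71 against thyroid tissue 2, whereas for Krt8 it is 1.35 and 0.95, and the open triangles of Krt13 and Krt14, at 0 in thyroid tissue 2, depend on the pseudocount of 1.

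TFCOs were compared with lung tissue as another organ. Of the 10 keratins, 5 were higher in TFCOs and none was lower, where 9.83% of genes were higher and 13.5% lower. The 5 were Krt5 (log2 difference 6.33 ± 1.26 SE, adjusted p = 0.0180), Krt15 (4.41 ± 0.93, adjusted p = 0.0212), Krt17 (7.49 ± 1.90, adjusted p = 0.0354), Krt13 (8.59 ± 2.23, adjusted p = 0.0372) and Krt4 (7.21 ± 2.12, adjusted p = 0.0489). Over the alternatives, the adjusted p of Krt5 ranged from 0.00237 to 0.117, that of Krt15 from 0.00189 to 0.138, that of Krt17 from 0.00229 to 0.176, that of Krt13 from 0.00145 to 0.169 and that of Krt4 from 0.00516 to 0.197. Without limma's trend, Krt17, Krt13 and Krt4 did not pass, and voom called 2 of the 5, Krt15 and Krt13. Krt13 was at 0 in both lung tissues. Set against a floor of 3 reads per lung library the mean of the TFCOs was at least 163-fold higher and the lowest TFCO library at least 84.5-fold. With a pseudocount of 5 in place of 1 the log2 difference of Krt13 was 6.28, since it depends on the pseudocount where a group is at 0. Krt14 had a difference of 6.49 ± 2.31 with an adjusted p of 0.0758. All 4 TFCO libraries were above both lung tissues in Krt8 and in all 6 basal and squamous keratins, as in 34.4% of genes. Krt8 differed by 1.83 ± 0.72 (adjusted p = 0.0962) and Krt7 by -1.91 ± 1.05 (adjusted p = 0.197). For Krt18 and Krt19 the differences of 0.09 ± 0.98 and 0.28 ± 0.48 were below their errors. After quantile normalization, which moved the median of all genes from 0.05 to 0.32, they were -0.045 and -0.015, and after scaling to the same total Krt18 was at -0.039. When 1 library was left out, the log2 differences ranged from 6.06 to 6.59 for Krt5 and 4.05 to 4.77 for Krt15. They ranged from 6.78 to 8.20 for Krt17, 8.39 to 8.79 for Krt13 and 6.83 to 7.60 for Krt4. A fit without a lung tissue leaves 1 lung library, so it cannot decide whether the 5 calls rest on both. Both lung tissues lie in the set of libraries where keratins such as Krt71 were at 0, so the 5 calls also follow that split of the libraries.

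Thyroid tissue was compared with lung tissue as the second pair of organs. None of the 10 keratins passed the test, as against 6.05% of genes, and voom called 0. At an unadjusted p under 0.05, Krt5 and Krt15 were higher in thyroid tissue, where 22.9% of genes passed in either direction. Without thyroid tissue 2, the log2 differences of the 6 basal and squamous keratins from lung tissue lay between 3.90 for Krt15 and 7.71 for Krt13. Without thyroid tissue 1 the differences from lung tissue were 1.66 for Krt5, 1.52 for Krt15, 1.20 for Krt17 and 0.50 for Krt4. Each of these fits leaves 1 thyroid tissue, so they are values without a test. Krt13 was at 0 in thyroid tissue 2 and lung tissue, and Krt14 rests on 0 reads against 7 and 3. Even Krt15, the highest of the 6 in these libraries, rests on 46, 22 and 16 reads. In the same libraries Krt8 was 0.88 and Krt18 0.63 higher, and Krt7 1.02 and Krt19 0.45 lower, in thyroid tissue 2 on the log2 scale, without a test.

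The lines were then set side by side. All 10 keratins were higher in mThy16 than in mThy14 at both passages, as were 31.5% of all genes. The fold of mThy16 over mThy14 at early and late passage was 23.7 and 6.25 for Krt7, 8.76 and 5.27 for Krt4, 6.52 and 2.87 for Krt5, 4.67 and 3.68 for Krt8, and 4.30 and 3.01 for Krt18. These 5 keratins were at least 2-fold higher at both passages, as were 8.38% of genes. Differences were smaller for Krt14 (1.76 and 2.09), Krt19 (1.71 and 2.18), Krt13 (1.31 and 2.65), Krt15 (1.60 and 1.79) and Krt17 (1.42 and 1.05). Simple and basal keratins were thus both among those that differed most and those that differed least. Each line comes from 1 thyroid, so the lines were not tested. Among genes of the lists chosen after their values were seen, the hemidesmosome integrin Itgb4 also followed the line (171 and 67.7 in mThy14 against 3048 and 2904 in mThy16, early and late), as did the ciliated cell factor Foxj1 (35.1 and 442 against 6122 and 6016, with 1241 and 1020 in lung tissue). The 6 follicular markers summed to 170247 and 101549 in mThy14 against 25563 and 20807 in mThy16. Whether these differences had a part in those of the keratins was not tested.

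Late TFCOs were compared with early TFCOs to see whether keratins changed with passage. No keratin passed the test, and no gene did (0.00% of 14703). At an unadjusted p under 0.05 there were 166 genes, which is 1.13%, and no keratin among the 10. Taking the line as a block gave 0 genes too, as did voom. The log2 difference of the groups was between -0.31 for Krt13 and 1.02 for Krt7, with errors from 0.51 to 2.14. In mThy16 all 10 keratins moved by 0.35 or less on the log2 scale. In mThy14 Krt7 was 3.96-fold, Krt5 2.06-fold and Krt4 1.81-fold the early level at late passage, whereas Krt13 was 0.568-fold. These are single libraries, and the lines' changes were not tested against each other.

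Keratins of hair and of the hair follicle were listed beside the basal keratins in the same libraries. Krt73, a keratin of the inner root sheath, was at 176 and 779 in early mThy14 and mThy16 TFCOs, 236 and 948 in late TFCOs, 238 in thyroid tissue 1 and 0 in the other 3 libraries. The inner root sheath keratin Krt71 was at 121, 533, 168, 616 and 144 in the same 5 libraries and at 0 in the other 3. Krt34, a keratin of the hair shaft, was at 164, 467, 97.8, 324 and 110 and at 0. Of the 39 keratins that were not members, 14 were at 50 or more in all 5 libraries, and 12 of these were under 10 in the other 3. Such genes are also at least 5-fold higher in the 5 libraries than in the other 3, a wider rule that 4.65% of all genes met. One of them, Krt74, has no protein-coding transcript in GENCODE M21, where it is a transcribed unitary pseudogene, and it was at 146, 638, 176, 560 and 119. Of the list of 23 other keratins tested, 8 were higher in TFCOs than in lung tissue and none passed the test against thyroid tissue, where 9.83% of all genes were higher and 3.65% passed. The 8 were Krt6a, Krt6b, Krt71, Krt73, Krt74, Krt2, Krt16 and Krt36. All 8 were under 10 in thyroid tissue 2 and lung tissue, so they passed the filter on low values only through TFCOs and thyroid tissue 1. Their calls against lung tissue repeat the split of the libraries and are not read as a further result.

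Several of these keratins kept close to fixed proportions across TFCO libraries, type II keratins to Krt8 and type I keratins to Krt19. Krt71 was 3.17% to 3.57% of Krt8 in the 4 TFCO libraries, and Krt6a, a keratin of stressed epithelium, was 14.9% to 18.1% of it. Of the members, Krt14 was 13.3% to 14.1% of Krt19, Krt15 9.72% to 11.8% and Krt13 11.4% to 15.2%, while Krt5 was 6.32% to 10.0% of Krt8. In thyroid tissue 1 the shares were 17.7% for Krt14, 15.2% for Krt15 and 9.45% for Krt5, with Krt13 within its range in TFCOs, and in thyroid tissue 2 and lung tissue they were between 0 and 2.37%. The SD of the log2 ratio of Krt14 to Krt19 over the 4 TFCO libraries was 0.04, and 3 of 8538 genes at 50 or more in the 5 libraries had a lower one. For Krt5 against Krt8 the SD was 0.28, with 73 of 8538 genes lower. These are descriptions of 4 libraries from 2 lines. Over the 10 type II keratins that were not members, the median SD was 0.19 against Krt8 and 0.76 against Krt19, where the median of all 8538 genes was 1.25 and 0.69. Over the 3 type II members other than Krt8, it was 0.46 against Krt8, with a range of 0.28 to 1.11. Over the 5 type I members other than Krt19, the median SD was 0.20 against Krt19 and 0.80 against Krt8. Over the 4 type I keratins that were not members, it was 0.38 against Krt19, with a range of 0.25 to 0.91. Krt17 spanned 7.07% to 14.6% of Krt19 in the TFCOs (SD 0.45, with 1534 of 8538 genes lower), and Krt4 spanned 4.64% to 9.24% of Krt8 (SD 0.46, with 206 genes lower). Krt7 (SD 1.11 against Krt8) and Krt18 (SD 0.65 against Krt19) varied most among the members, and Krt18 had an SD of 0.13 against Krt8, its own partner.

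**Figure D4:**
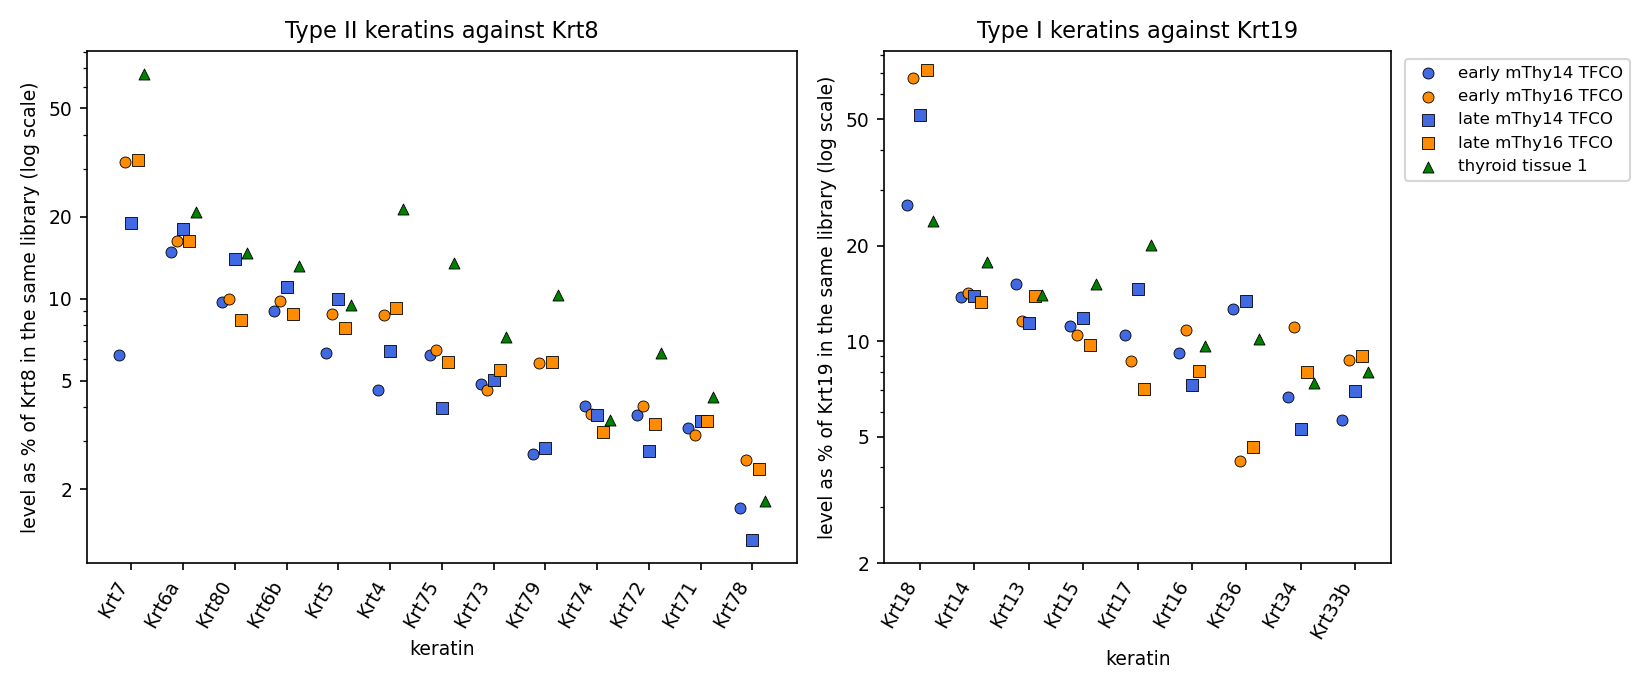
Level of each keratin at 50 or more normalized counts in the 4 TFCO libraries and thyroid tissue 1, as percent of Krt8 for type II (left) and of Krt19 for type I keratins (right) in the same library, on log axes. Krt14 lies at 13.3% to 14.1% of Krt19 and Krt71 at 3.17% to 3.57% of Krt8 in the TFCOs, whereas Krt7 spans 6.24% to 32.2% of Krt8.

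The difference between the lines was also read by keratin type. Mean mThy16 minus mThy14 was 2.05 on the log2 scale for Krt8 and 2.11 for Krt5, and its median was 2.06 over the 10 type II keratins that were not members, with a range of 1.70 to 3.13. For Krt19 it was 0.95, with 0.94 for Krt14, 0.90 for Krt13, 0.76 for Krt15 and 0.29 for Krt17. The 4 type I keratins that were not members had a median of 1.29 and ranged from -0.61 for Krt36 to 1.62 for Krt34, so they did not lie as close to Krt19 as most type II keratins did to Krt8. Krt18, a type I keratin, was nearer to the type II keratins at 1.85. The median of the 8538 genes was -0.06. Of the 50-base stretches of Krt8, 26.9% occurred in transcripts of other genes, and none of those of Krt19 did. Whether reads of Krt8 and Krt19 were counted on other keratins was not tested. The levels of basal and squamous keratins in TFCOs and thyroid tissue 1 are uncertain in that respect.

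**Figure D5:**
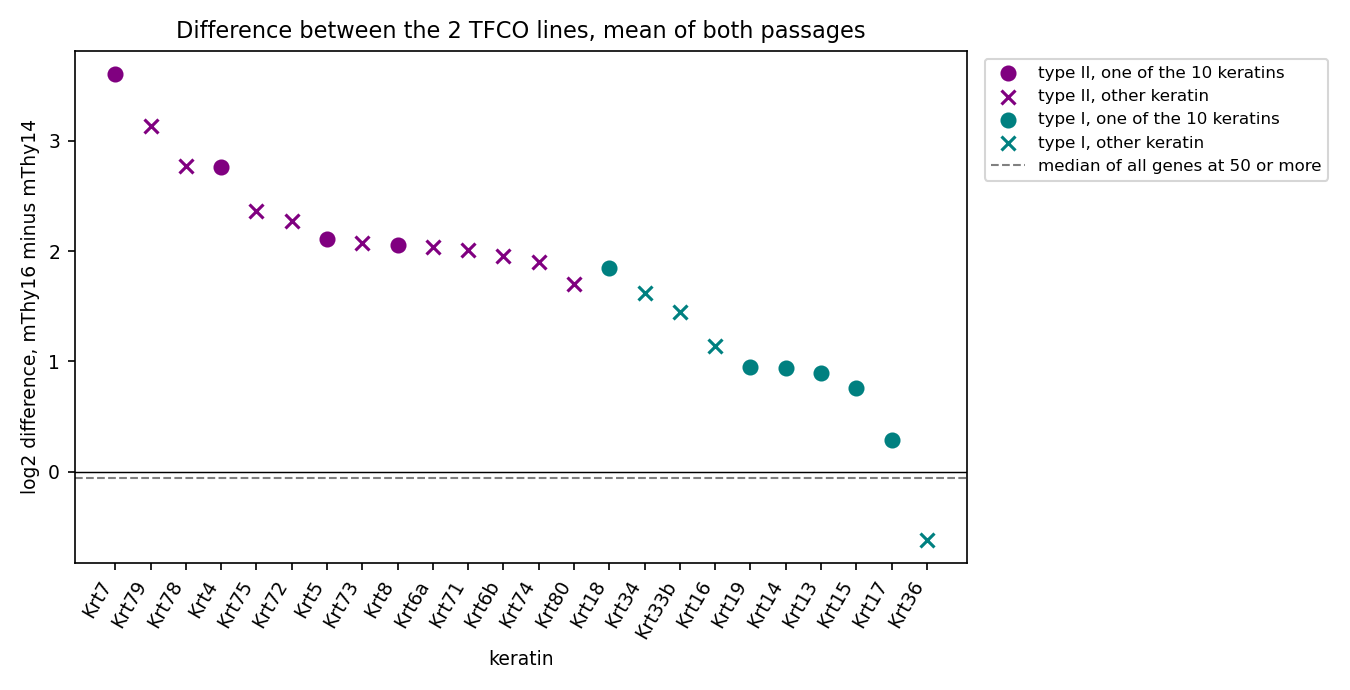
Log2 difference of mThy16 minus mThy14 TFCOs, averaged over early and late passage, for each keratin at 50 or more normalized counts, with filled circles for the 10 keratins and crosses for other keratins. Type II keratins lie between 1.70 and 3.60 and type I keratins between -0.61 and 1.85, and the dashed line is the median of all genes at -0.06.

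Genes that work with basal keratins were listed beside them. In all such lists, counts stand beside 3.65% of all genes that passed the test against thyroid tissue, and 9.83% that were higher and 13.5% that were lower against lung tissue. Of 13 partners of basal cells tested, such as integrins and hemidesmosome parts, none was called higher against thyroid tissue and 1 was called lower, the water channel Aqp3 (5.62 to 11.4 normalized counts in TFCOs and 257 and 233 in thyroid tissue). Against lung tissue 1 of 13 was higher, the plakophilin Pkp1 of squamous desmosomes (24.8 to 43.6 in TFCOs against 2.51 and 0), and 4 were lower, namely Pdpn, Dst, Snai2 and Bnc1. The basal transcription factor Trp63 was not listed under that symbol, so its level was not analysed. Col17a1, a collagen of hemidesmosomes, was at 19.7 to 55.9 in TFCOs, 43.5 and 15.7 in thyroid tissue and 104 and 110 in lung tissue. Desmogleins and desmocollins of stratified epithelium were low: Dsg3 was at 1.41 to 23.9 in TFCOs, 17.4 and 0 in thyroid tissue and 0 in lung tissue, and Dsc3 at 6.93 to 16.7, 4.35 and 0.922, and 0.838 and 0. Dsg2 and Dsp, the desmosome genes of simple epithelium, were at 345 to 764 and at 2420.3 to 3608 in TFCOs. Of the 13 desmosome and linker genes tested, none passed the test against thyroid tissue. Against lung tissue the desmosome genes Dsp, Pkp3 and Dsc2 were higher and Krtcap2, a part of the complex that glycosylates proteins, was lower. Krtcap2 was at 3.96 to 12.6 in TFCOs and 14.2 in thyroid tissue 1. It was at 741 in thyroid tissue 2 and at 782 and 571 in lung tissue, so it followed the sets of libraries. The 14 listed partners of basal cells summed to 5088 to 7730.0 in TFCOs, 5349 and 5456 in thyroid tissue and 8035 and 8399 in lung tissue. This sum did not separate the sets of libraries, but it does not describe each partner. The integrin Itga6 was a large part of it in TFCOs (3138 to 5432) and thyroid tissue (2626 and 3416). Dsg3 and Dsc3, at low counts, were higher in every TFCO library and thyroid tissue 1 than in thyroid tissue 2 and lung tissue. Others, such as Col17a1 and Aqp3, were not.

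Genes of squamous differentiation and of other filaments were also counted. Of 11 squamous differentiation genes tested, 1 was called higher against thyroid tissue, the transglutaminase Tgm1 that cross-links the cell envelope (log2 difference 2.52 ± 0.47 SE, adjusted p = 0.0367, at 898 to 6399 in TFCOs against 463 and 313 in thyroid tissue). Against lung tissue 5 of 11 were higher, namely Tgm1, Sprr1b, Rhcg, Krtdap and Cnfn, where 9.83% of all genes were. Apart from Tgm1 these were low in most TFCO libraries. Sprr1b was at 14.1 to 37.6, Krtdap at 11.2 to 16.7 and Cnfn at 9.37 to 16.9 in TFCOs. All of these were at 0 in lung tissue. Rhcg was at 231 in early mThy14 TFCOs and 5.20 to 7.83 in the other TFCO libraries. Krtdap and Cnfn were at 4.35 and 15.2 in thyroid tissue 1 and 0 and 2.77 in thyroid tissue 2. Sprr1b was at 0 in both. The envelope protein gene Ivl was at 9.90 to 50.6 in TFCOs and 13.1 and 6.45 in thyroid tissue. Of 8 other filament genes, the mesenchymal filament Vim (6.25 to 74.9 in TFCOs against 2313 and 2301 in thyroid tissue) and the muscle filament Des fell in TFCOs against thyroid tissue, with log2 differences of -6.43 ± 0.79 and -5.25 ± 0.81. Of 16 genes of epithelial identity such as Epcam and Cdh1, none passed the test against thyroid tissue, and 9 were higher and 1, Klf4, was lower against lung tissue, where 9.83% and 13.5% of all genes were. Another 11 genes were listed for a possible link to keratin regulation, which was not tested. Of these 11, none passed against thyroid tissue, and Ccn2 and Sox9 were higher and Gata6 was lower against lung tissue. No gene of these lists passed the test with passage. Tgm1 was at 6399 in early and 898 in late mThy14 TFCOs and at 2118 and 1905 in mThy16 TFCOs, and Rhcg went from 231 to 5.20 in mThy14.

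Genes with the profile most like a keratin were ranked by the mean absolute difference of centred log2 values over the 8 libraries, among 10185 genes at a mean of 100 or more. For Krt8 the nearest were Ptges2 (0.31), Nipsnap1, Rab11fip5, Gadd45a and Cblc, and for Krt18 Napepld (0.23), Ptpn14, Gsr, Ccng1 and Cd276. For Krt19 they were Bag1 (0.15), Ift46, Rassf7, Sec24b and Sec23ip. For Krt5 they were Tfap2a (0.41), Cct6b, B4galnt4, Mast1 and Gstm5. Bag1 stood at 2068, 3743, 2096 and 4194 in mThy14 and mThy16 TFCOs at early and then at late passage, against 2461, 4214, 1856 and 4049 for Krt19. Tfap2a, a transcription factor of surface epithelium, was at 177, 962, 495 and 922 in the same TFCOs, 83.8 and 15.7 in thyroid tissue and 9.21 in lung tissue 1. A keratin partner did not rank among the nearest 5 genes of Krt8 or Krt18.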

How the data were processed

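RNA of 8 mouse libraries was analysed from 1 table that the authors deposited, which holds a normalized count signal per gene: read counts divided by a size factor of each library. All values above 0 were whole multiples of 1 step per library within 0.01 (100%), and the step gave 9755081 to 16904865 reads on genes. Each group held 2 libraries, and values that rest on few reads are also limited by counting error. The methods describe a stranded polyA kit with paired-end reads, the labels an adapted CEL-Seq library. The submitters' processing notes name BWA 0.6.2-r126 and the builds hg38 and mm10, with no role, and the build used for each library and the annotation are not given in the sources used here. No table column of a sample was left unused (0).

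Samples were grouped from their titles. Members and gene lists were chosen with earlier results of these data known. The package limma 3.58.1 (R 4.3.3) was run on log2(normalized counts + 1) with its trend option. It covered 14703 genes that reached 10 in 2 or more libraries, and p-values were adjusted by Benjamini-Hochberg over them. The 2 passages of a line were averaged before comparison with tissue, and passages were compared in a fit of all 8 libraries. Nothing states separate animals for the 2 tissues of a kind, so p-values measure the spread between these samples. The fits were tested on simulated data. Line names pair early and late TFCOs, since both come from the same thyroid (r = 0.48 across genes). All members are named, with list genes past the threshold, the 5 genes most like 4 of the keratins, and genes described as chosen after their values were seen. Mouse symbols come from a separate list of gene names, which matched 15883 of 16119 symbols. Transcripts and positions come from GENCODE M21 (GRCm38), and identity was computed from global alignments of coding sequence. Sequences of type II keratins are not reported here. Alternatives were another pseudocount, no filter on low values, quantile normalization, equal library totals, no trend, fewer groups in the fit, separate TFCO libraries, a replicate block, voom and leaving out each library. Voom was run on the reads that the steps gave, and the other count tests planned were not run.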

Additional observations from a re-analysis of the deposited data

Results flagged for a closer look

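In 3 keratins the lines moved in opposite directions from early to late passage, and the other members moved in the same direction in both lines. The late minus early difference of Krt5 was 1.04 on the log2 scale in mThy14 and -0.14 in mThy16. Krt17 differed by 0.079 in mThy14 and by -0.35 in mThy16. Krt13 differed by -0.81 in mThy14 and by 0.20 in mThy16. Each value is late minus early of 1 library each, so the difference between the lines was not tested. The share of all genes with opposite directions is not given here. Whether opposite directions were more frequent among keratins than among other genes is therefore not known.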

How the results depend on the processing

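The alternatives left the directions of the 10 keratins against lung tissue in place except for Krt18 and Krt19. Krt18 was at -0.045 after quantile normalization and at -0.039 after scaling to the same total, and Krt19 at -0.015 after quantile normalization. Keratins called against lung tissue fell from 5 to 2 without the mean-variance trend and to 2 with voom, which was chosen after seeing the data, and were 0 to 6 when 1 library was left out. Against thyroid tissue they were 0 to 6, for thyroid against lung tissue 0 to 6, and with passage 0. Genes called between TFCOs and thyroid tissue went from 536 to 124 with only those groups in the fit and to 1322 with 4 separate TFCO libraries, and were 143 to 4026 when 1 library was left out. Against lung tissue they went from 3435 to 6979 and 6625 in these fits, and were 296 to 6981. Between thyroid and lung tissue they went from 889 to 277 with only those groups and to 279 with voom, and were 59 to 4288. With passage they were 0 to 2. The log2 ratio of simple to basal and squamous keratins went from 2.36 to 1.54 in TFCOs without the largest member of each class, and in lung tissue from 8.38 to 8.13, and to 8.72 without division by length. It ranged from 2.32 to 2.41 in TFCOs, 1.66 to 7.10 in thyroid tissue and 8.30 to 8.46 in lung tissue when 1 library was left out. The cause of these changes was not tested. Fits without a tissue library leave 1 library in that group, so the numbers called in them are not read as results.

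When 1 library was left out, log2 differences changed sign in some keratins. TFCOs against thyroid tissue ranged from -0.54 to 2.08 for Krt18, -0.029 to 6.28 for Krt17 and -0.26 to 6.71 for Krt4. TFCOs against lung tissue ranged from -0.63 to 0.82 for Krt18 and -0.17 to 0.73 for Krt19. Thyroid against lung tissue ranged from -1.99 to 0.63 for Krt18 and -2.19 to 5.86 for Krt14. Late against early TFCOs ranged from -0.90 to 1.32 for Krt8, -0.77 to 1.33 for Krt18, -1.26 to 3.30 for Krt7, -0.79 to 0.33 for Krt19, -0.90 to 1.80 for Krt5, -0.80 to 0.26 for Krt14, -0.66 to 0.17 for Krt15, -0.39 to 0.12 for Krt17, -1.07 to 2.05 for Krt4 and -1.01 to 0.39 for Krt13. A replicate block for the line gave 0 genes that changed with passage. The sample titles do not say whether tissue numbers pair animals. Differences between the numbers correlated at r = -0.07 between thyroid and lung tissue, which cannot decide it. As a block, tissue numbers gave 756 genes between thyroid and lung tissue. No keratin call changed with the block. The planned fits with edgeR and DESeq2 on reads recovered from the table were not run, and voom on these reads was run in their place.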
